A study of Mus musculus with 12 samples.

Results

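NuRD is a chromatin complex that joins a nucleosome remodeller to histone deacetylases, and MBD2 or MBD3 links it to DNA. The transcripts described here are those of 10 of its subunit genes other than the MBD proteins: Chd4, Hdac1, Hdac2, Mta1, Mta2, Mta3, Rbbp4, Rbbp7, Gatad2a and Cdk2ap1. They were chosen by gene symbol among the 55335 genes of the count table, and each of the 10 passed the filter on low counts, as did 14935 genes in all. RNA was sequenced from PYMT-R221A, a mouse mammary tumour cell line, in 4 groups of 3 libraries. The groups were cells treated with 40 µM KCC-07, control cells, cells transfected with siRNA against Mbd2 (siMBD2) and cells transfected with scramble siRNA. KCC-07 is a small molecule, and the series title calls it an inhibitor of the MBD2 pathway. No vehicle or treatment time was given in the sources used here, and all libraries come from 1 cell line. The labels name the libraries as biological replicates.

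In NuRD, CHD4 uses ATP to move nucleosomes, HDAC1 and HDAC2 remove acetyl groups from histones, and MTA proteins form the scaffold that holds the deacetylases. RBBP4 and RBBP7 are histone-binding chaperones that also belong to other chromatin complexes, GATAD2A bridges the MBD protein to CHD4, and CDK2AP1 is a small subunit of the complex. MBD2 binds methylated CpG and brings NuRD to methylated promoters, where the complex is known for repressing genes.

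Because MBD2 reads CpG, the CpG content of the members' own promoters is shown for the 4 genes that were lower with KCC-07 in the fit that paired libraries by replicate number. Each line gives 250 bases before and 50 after the transcript start from RefSeq on GRCm38.p6, written 5′ to 3′ on the gene's strand, with CpG in capitals. They are Hdac2 at chr10:36974294-36974593 (plus strand), Rbbp4 at chr4:129335321-129335620 (minus strand), Rbbp7 at chrX:162760122-162760421 (plus strand) and Cdk2ap1 at chr5:124354579-124354878 (minus strand). The Cdk2ap1 window lies inside the gene as annotated by GENCODE, which runs from 124345417 to 124363082, and not at its annotated start.
Hdac2: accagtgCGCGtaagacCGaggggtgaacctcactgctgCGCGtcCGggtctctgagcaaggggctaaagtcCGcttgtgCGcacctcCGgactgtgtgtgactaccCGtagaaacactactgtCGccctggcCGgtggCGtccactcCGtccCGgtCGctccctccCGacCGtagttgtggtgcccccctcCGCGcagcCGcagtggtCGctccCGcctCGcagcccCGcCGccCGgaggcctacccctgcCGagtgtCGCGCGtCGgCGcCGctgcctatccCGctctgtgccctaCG
Rbbp4: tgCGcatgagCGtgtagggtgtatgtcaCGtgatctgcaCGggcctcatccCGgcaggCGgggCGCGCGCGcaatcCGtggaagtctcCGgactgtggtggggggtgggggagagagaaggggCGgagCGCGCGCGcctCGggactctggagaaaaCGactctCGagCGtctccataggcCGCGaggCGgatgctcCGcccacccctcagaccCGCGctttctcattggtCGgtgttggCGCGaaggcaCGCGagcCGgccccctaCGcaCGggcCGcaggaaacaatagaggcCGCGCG
Rbbp7: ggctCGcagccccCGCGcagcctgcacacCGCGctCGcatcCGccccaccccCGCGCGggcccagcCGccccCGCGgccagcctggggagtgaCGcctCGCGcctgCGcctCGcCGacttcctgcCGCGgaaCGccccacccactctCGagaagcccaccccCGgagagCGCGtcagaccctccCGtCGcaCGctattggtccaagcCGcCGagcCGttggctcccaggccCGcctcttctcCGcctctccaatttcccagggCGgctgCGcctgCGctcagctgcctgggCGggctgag
Cdk2ap1: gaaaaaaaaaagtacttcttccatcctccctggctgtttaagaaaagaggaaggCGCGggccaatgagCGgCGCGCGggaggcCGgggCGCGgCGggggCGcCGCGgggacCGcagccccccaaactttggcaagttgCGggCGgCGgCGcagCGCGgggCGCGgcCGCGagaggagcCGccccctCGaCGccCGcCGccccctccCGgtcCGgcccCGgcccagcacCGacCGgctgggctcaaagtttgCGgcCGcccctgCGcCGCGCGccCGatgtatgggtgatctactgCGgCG
These windows held 36, 39, 38 and 43 CpG in the order printed, against a median of 7 over 32851 promoters of the same length. The table held 10 promoters of 8 members, Chd4 and Gatad2a having a pair each, and no entry was matched for Hdac1 and Mta3. The other 6 windows held 17 and 29 CpG at Chd4, 50 at Mta1, 30 at Mta2, and 21 and 26 at Gatad2a. All 10 held the GC box GGGCGG on 1 strand or the other, which 35.7% of all promoters of this length held. The 32851 promoters were not limited to genes expressed in these cells, and no such background was computed. Neither CpG content nor the GC box is thus shown to be particular to the members or to the 4 genes printed. DNA methylation was not measured in these samples, so a CpG count describes the sequence alone.

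Library totals ran from 25.8 to 34.0 M counts. Libraries of replicate 3 had a higher share of mitochondrial counts than the others of their group: 3.90% against 1.82% and 1.55% with KCC-07, and 2.81% against 1.45% and 1.47% in control. In the siRNA arm the shares were 2.70% against 2.14% and 2.12% with siMBD2, and 3.01% against 2.21% and 2.32% with scramble. The siRNA lowered its target: Mbd2 averaged 33.7 ± 2.70 CPM with siMBD2 and 77.2 ± 5.47 CPM with scramble (SD, n = 3 each; log2 fold change -1.20, edgeR quasi-likelihood adjusted p = 0.000197).

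Per kilobase of merged exon, Rbbp7 was the most abundant member, with a mean of 187 CPM per kb over the 12 libraries. Cdk2ap1 averaged 77.0, Chd4 66.0, Mta2 47.2, Gatad2a 35.5, Mta1 31.8, Hdac2 29.1, Rbbp4 28.9, Hdac1 27.0 and Mta3 10.9 CPM per kb. Between neighbours in this order the ranges over libraries did not overlap for Rbbp7 and Cdk2ap1, or for Hdac1 and Mta3. Hdac2 exceeded Rbbp4 in 6 of 12 libraries, so that pair could not be ordered. Hdac1 and Cdk2ap1 have near-identical copies, Gm10093 and Gm12184, which held 30.4% and 28.0% of the summed counts of gene and copies. Counts of these copies are left out here, so the places of Hdac1 and Cdk2ap1 in the order are uncertain. Exons of Rbbp4 and Rbbp7 overlap genes on the opposite strand, so their levels are uncertain too. Merged exons hold all annotated exons, used or not, and the transcripts present were not measured. The order and the shares that follow depend on these lengths, such as 8.74 kb for Rbbp4 and 2.91 kb for Rbbp7. Within their own families Rbbp7 took 84.7% to 88.0% of the Rbbp4 and Rbbp7 signal per kb, and Gatad2a took 71.7% to 76.6% of Gatad2a and Gatad2b. In counts, the geometric mean of Rbbp7 over Rbbp4 was 1.98 with KCC-07, 2.03 in control, 2.27 with siMBD2 and 2.37 with scramble. Chd4 took 82.6% to 89.1% of Chd3, Chd4 and Chd5. The MTA scaffold genes divided into 42.1% to 56.5% Mta2, 32.4% to 44.7% Mta1 and 9.61% to 13.6% Mta3. Each member had an SD of log2 CPM below the median of all tested genes, which include genes with few counts. No comparison with genes of like level was made, so steadiness is not shown to be particular to the members. The SD of log2 CPM over the 12 libraries was lowest for Hdac1 (0.10, a value below which 3.07% of tested genes lay) and highest for Chd4 (0.21, at 32.9%), with a median over all tested genes of 0.27.

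**Figure D1:**
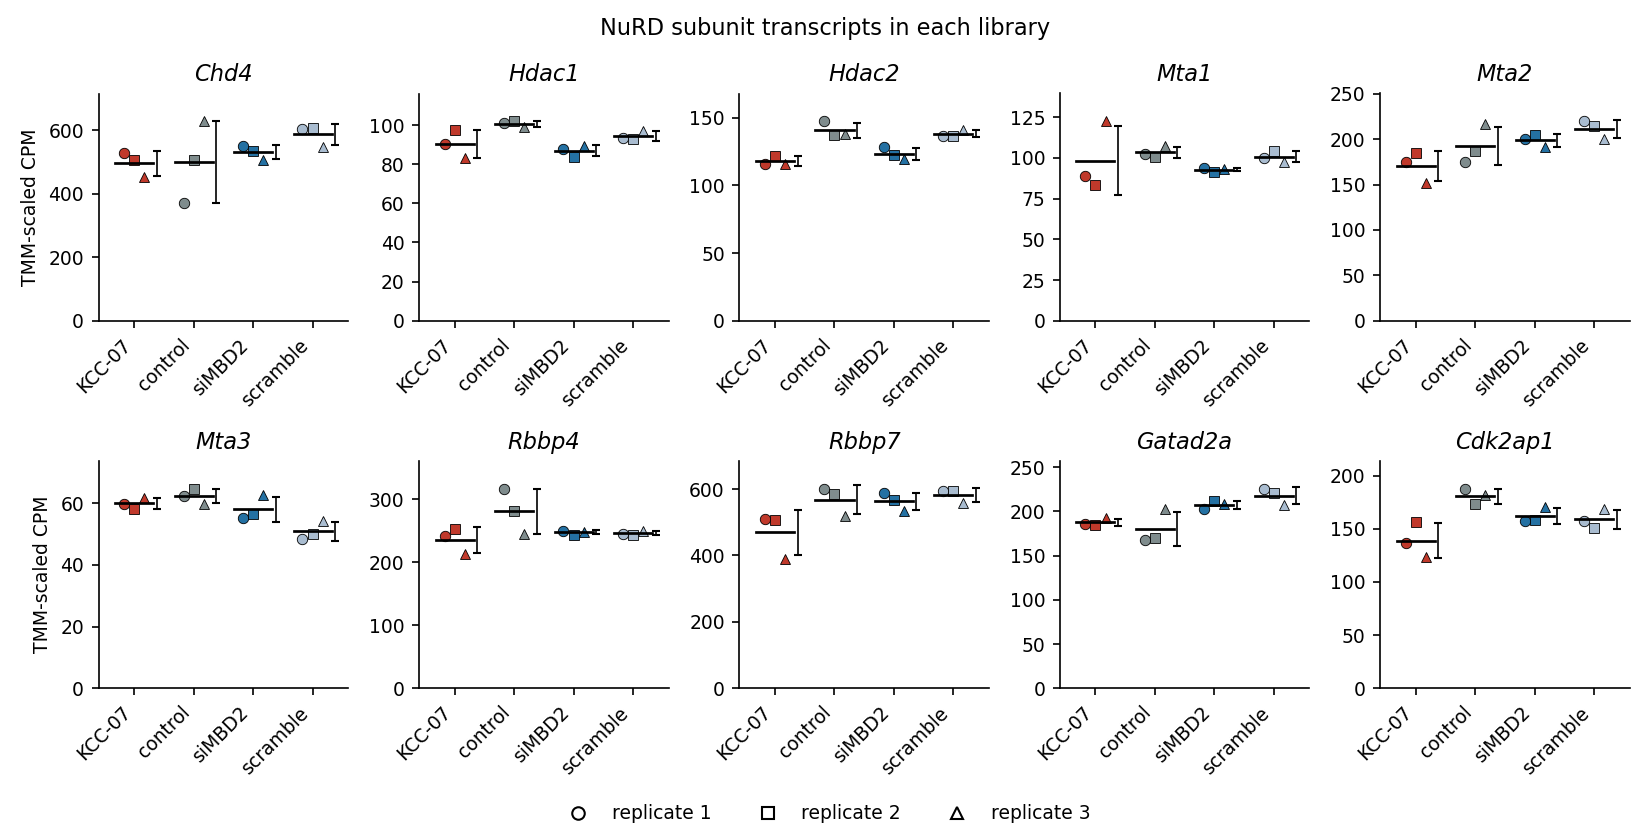
TMM-scaled CPM of each of the 10 NuRD subunit genes (vertical axes, from 0) in the 4 groups, with symbols for replicates 1, 2 and 3, bars for the group means and error bars for the SD (n = 3). Cdk2ap1 and Hdac2 with KCC-07 lie below every control library, while the control libraries of Chd4 spread from 370 to 628 CPM.

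With KCC-07, 1 of the 10 members fell, Cdk2ap1, and none rose. Over all tested genes 2.08% were lower and 3.58% higher, 5.65% in either direction, so the members' count stands near that background. The median log2 fold change of the members was -0.17, against 0.02 over all genes. Of the members 9 lay below 0, as did 48.2% of all genes, and 4 had an unadjusted p under 0.05, as did 25.1% of all genes. Pairing the libraries by replicate number, 4 members fell, Hdac2, Rbbp4, Rbbp7 and Cdk2ap1, where 9% of all genes were lower. The paired fit of the 6 KCC-07 and control libraries alone called 0 members, where 0.564% of all genes were lower. Chd4 changed sign in both paired fits, to 0.01. DESeq2 called Hdac2 and Cdk2ap1, where 5.24% of all genes were lower. Of 8 epithelial markers 5 were higher with KCC-07 (Cdh1, Epcam, Krt18, Cldn3 and Cldn7, by 0.39 to 1.78 on the log2 scale), and Krt8, Krt14 and Krt5 lay at -0.17, -0.27 and -1.45 without passing. Their summed levels were 1714 to 1926 CPM with KCC-07 and 1550 to 1748 CPM in control. Fibroblast markers summed to 102 to 160 CPM with KCC-07 and 186 to 218 CPM in control, with 4 of the 7 (Col1a2, Col3a1, Dcn and Lum) under 1 CPM in all 12 libraries. Of the immune markers, the macrophage gene Cd68 had 1.19, 1.57 and 7.25 CPM with KCC-07, against 0.703, 0.766 and 0.957 CPM in control. Adgre1, another macrophage gene, was at 0 in all 12 libraries, and Ptprc and Cd3e were each under 1 CPM. The part of these markers, and of the mitochondrial share, in the members' values was not tested. In bulk RNA, fewer cells of a type and less RNA per cell cannot be told apart.

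The remodeller gene Chd4 (chromosome 6, from 125095981 to 125130591, GRCm38.p6) stood at 529, 508 and 452 CPM with KCC-07, against 370, 506 and 628 CPM in control. The control libraries alone spanned more than the whole KCC-07 range. The log2 fold change was -0.02 (SE 0.152, edgeR quasi-likelihood adjusted p = 0.963). Within replicate numbers the difference was 0.51, 0.00 and -0.47 on the log2 scale, that is, in opposite directions in replicates 1 and 3.

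Both deacetylase genes stood lower with KCC-07 in every library. Hdac2 (chromosome 10, from 36974544 to 37001889) had 116, 122 and 116 CPM with KCC-07, against 147, 138 and 138 CPM in control, and the groups did not overlap. Its mean was 118 ± 3.63 CPM with KCC-07 and 141 ± 5.57 CPM in control (SD, n = 3 each), a log2 fold change of -0.26 (SE 0.0688). The edgeR adjusted p of 0.0510 missed the threshold of 0.05, and with the replicate block it was 0.0300. Hdac1 (chromosome 4, from 129516104 to 129542713) had 90.1, 97.6 and 83.3 CPM with KCC-07, against 101, 102 and 99.0 CPM in control. Here too no library overlapped, and the log2 fold change was -0.15 (SE 0.0763, edgeR adjusted p = 0.230). Hdac1 has a near-identical copy, the gene model Gm10093, which held 30.4% of their summed counts and had a log2 fold change of -0.03 (edgeR adjusted p = 0.896). Summed with its copies, Hdac1 gave -0.12 (adjusted p = 0.399), so its value is uncertain. In all, 4 members had no overlap of groups with every KCC-07 library lower (Hdac1, Hdac2, Rbbp7 and Cdk2ap1), against 10.6% of all tested genes.

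The 3 MTA scaffold genes did not pass the threshold. Mta2 (chromosome 19, from 8941875 to 8952303) averaged 170 ± 16.7 CPM with KCC-07 and 193 ± 21.3 CPM in control (SD, n = 3 each; log2 fold change -0.18 with an SE of 0.0993, edgeR adjusted p = 0.289). Its difference was near 0 in replicates 1 and 2, at 0.00 and -0.02, and -0.51 in replicate 3. Mta1 (chromosome 12, from 113098278 to 113137206) had 88.8, 83.2 and 122 CPM with KCC-07, against 103, 101 and 107 CPM in control. KCC-07 replicate 3 lay above every control library and the other 2 below, which gave a log2 fold change of -0.08 (SE 0.122, edgeR adjusted p = 0.742). Without the 4 libraries of replicate 3 it was -0.23 (adjusted p = 0.0236, where 10.5% of all genes were lower). Mta3 (chromosome 17, from 83706163 to 83821516) averaged 60.0 ± 1.83 CPM with KCC-07 and 62.4 ± 2.40 CPM in control (SD, n = 3 each; log2 fold change -0.06, edgeR adjusted p = 0.713).

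Both chaperone genes lay below 0 in each replicate pair. Rbbp7 (chromosome X, from 162760402 to 162779092) had 509, 508 and 390 CPM with KCC-07, against 600, 585 and 518 CPM in control, with no overlap. KCC-07 replicate 3 was the lowest of all. The log2 fold change was -0.28 (SE 0.109), with an edgeR adjusted p of 0.145, and 0.0207 with the replicate block. Rbbp4 (chromosome 4, from 129307100 to 129335370) had 241, 253 and 213 CPM with KCC-07, against 316, 281 and 244 CPM in control. Here control replicate 3 lay within the KCC-07 range. The log2 fold change was -0.25 (SE 0.0987), with an edgeR adjusted p of 0.142, and 0.0362 with the replicate block. Exons of Rbbp4 overlap Sync and Gm26722, and exons of Rbbp7 overlap Txlng, on the opposite strand. The strand setting of the counting was not given in the sources used here, so both values are uncertain.

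Gatad2a (chromosome 8, from 69907076 to 69996384) lay above 0, at 188 ± 4.08 CPM with KCC-07 and 180 ± 19.6 CPM in control (SD, n = 3 each). Its groups overlapped, and the log2 fold change was 0.06 (SE 0.0848, edgeR adjusted p = 0.710).

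**Figure D2:**
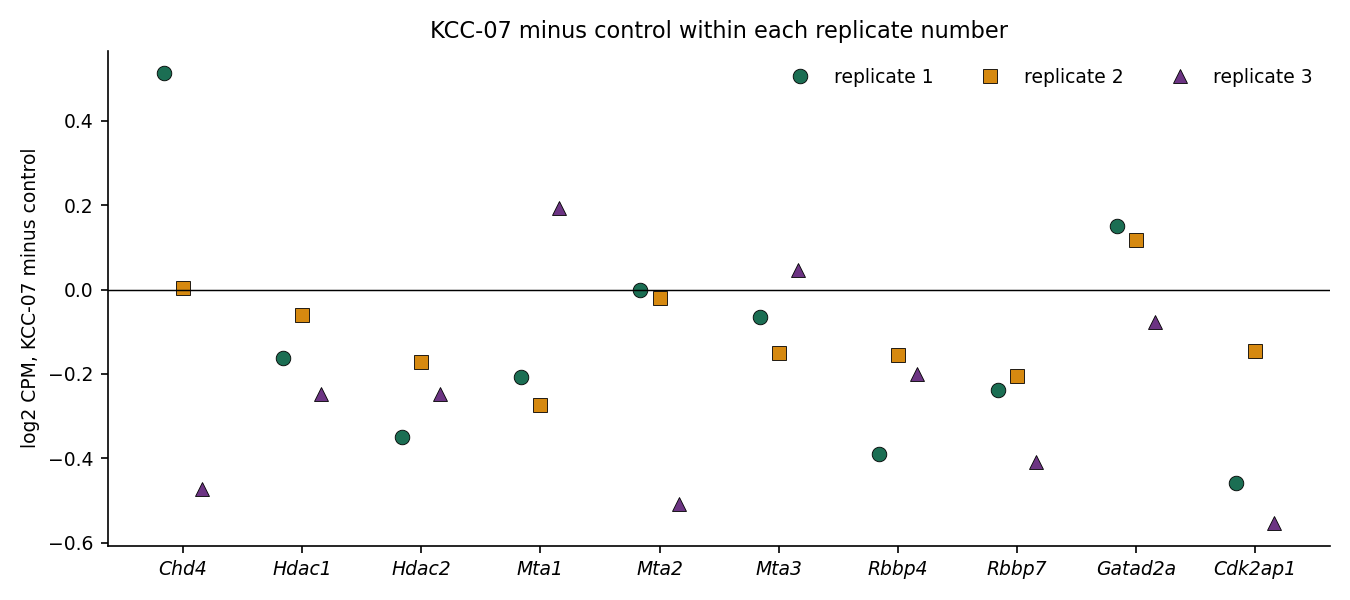
Difference in log2 CPM, KCC-07 minus control (vertical axis), within replicates 1, 2 and 3 (symbols) for each NuRD subunit gene (horizontal axis). Hdac1, Hdac2, Mta2, Rbbp4, Rbbp7 and Cdk2ap1 are below 0 in each replicate, Mta2 only just so in replicate 1 (-0.00084). Chd4 lies at 0.51, 0.00 and -0.47. The share of all genes below 0 in each replicate was not computed.

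Cdk2ap1 (chromosome 5, from 124345417 to 124363082) was the member that fell with KCC-07. It had 136, 157 and 123 CPM with KCC-07, against 187, 173 and 181 CPM in control. No library overlapped, and the differences within replicate pairs were -0.46, -0.15 and -0.55 on the log2 scale. The mean was 139 ± 16.7 CPM with KCC-07 and 181 ± 7.14 CPM in control (SD, n = 3 each), which is 0.768 of the control level (log2 fold change -0.38 with an SE of 0.0936, edgeR adjusted p = 0.0389, 0.0170 with the replicate block). The call ended without KCC-07 replicate 1 (adjusted p = 0.0843), KCC-07 replicate 3 (0.0752), control replicate 1 (0.0949) or control replicate 2 (0.0700). It also ended with no filter on low counts (0.0601) and in the 6 libraries alone (0.261). Over all genes 3.29% passed with no filter. In the 6 libraries alone 0.00688% of all genes passed, and 0 genes were called lower.

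Cdk2ap1 has a near-identical copy, the gene model Gm12184, which held 28.0% of their summed counts, so reads of either could be counted to the other. Gm12184 had 51.8, 55.0 and 53.3 CPM with KCC-07, against 58.1, 76.5 and 74.0 CPM in control, again with no overlap (log2 fold change -0.38 with an SE of 0.105, edgeR adjusted p = 0.0549). The sum of Cdk2ap1 and its copies was 188, 212 and 177 CPM with KCC-07, against 246, 250 and 255 CPM in control. This sum, an alternative chosen after seeing the data, had a log2 fold change of -0.38 (SE 0.0813, edgeR adjusted p = 0.0216). The sum lost its call without KCC-07 replicate 1 (0.0605) or control replicate 2 (0.0613), and kept it under the other 4 omissions.

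**Figure D3:**
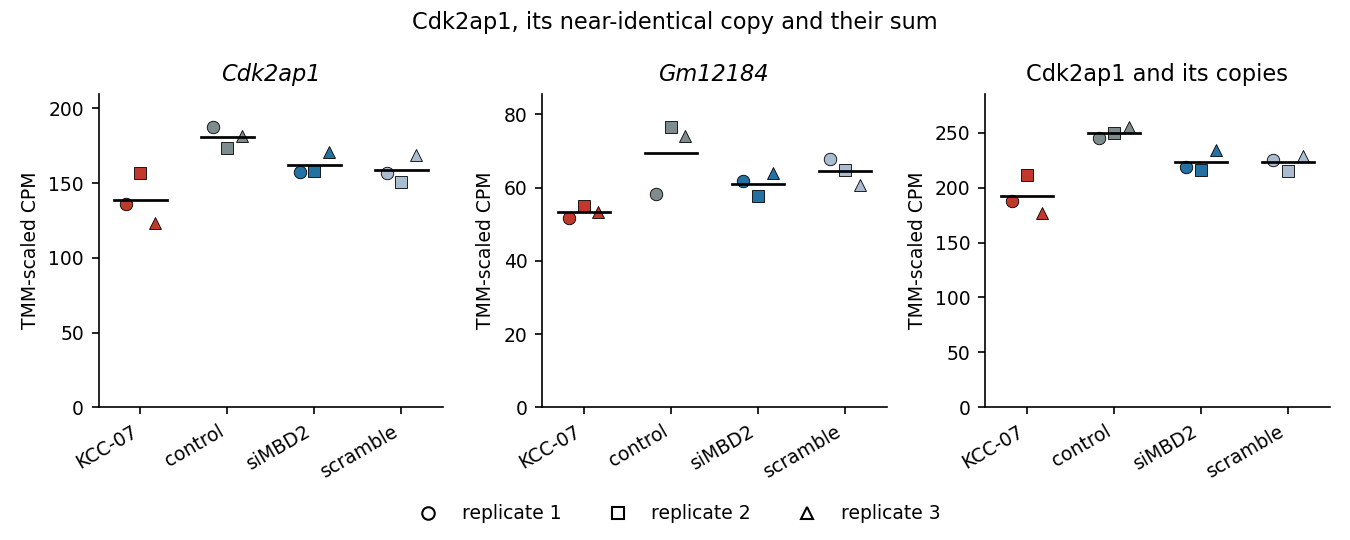
TMM-scaled CPM (vertical axes, from 0) of Cdk2ap1, of its near-identical copy Gm12184 and of the sum of Cdk2ap1 with its copies, in the 4 groups, with symbols for the replicates and bars for the means. In each panel the KCC-07 libraries lie below all control libraries.

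With siMBD2, 0 of the 10 members passed the threshold by edgeR and 0 by DESeq2, with 2 at an unadjusted p under 0.05. Over all genes 0.0402% passed by edgeR and 0.562% by DESeq2, and 5.26% had an unadjusted p under 0.05. The members' median log2 fold change was -0.08, against 0.00 over all genes. Mta3 had 55.1, 56.5 and 62.7 CPM with siMBD2, against 48.5, 49.9 and 54.4 CPM with scramble. Each siMBD2 library lay above each scramble library, and the differences within replicates were 0.18, 0.18 and 0.20 on the log2 scale. The fitted log2 fold change was 0.19 (SE 0.0830, edgeR adjusted p = 0.901). Hdac2 had 128, 123 and 119 CPM with siMBD2, against 137, 137 and 141 CPM with scramble, with no overlap (log2 fold change -0.16 with an SE of 0.0688, edgeR adjusted p = 0.866). Hdac1 averaged 86.9 ± 2.84 CPM with siMBD2 and 94.4 ± 2.41 CPM with scramble (SD, n = 3 each), and Mta1 92.8 ± 1.19 CPM with siMBD2 and 101 ± 3.47 CPM with scramble. Both had every siMBD2 library lower, at edgeR adjusted p = 1. Thus 4 members did not overlap between groups, where 22% of all tested genes did not. Chd4, Mta2, Rbbp7 and Gatad2a lay between -0.15 and -0.05, Rbbp4 at 0.01 and Cdk2ap1 at 0.03, all at an adjusted p of 1. The fit of the 6 siRNA libraries alone with the replicate block called Chd4 (-0.14, adjusted p = 0.00288), Hdac1 (-0.12, 0.0430), Hdac2 (-0.16, 0.0101) and Mta3 (0.19, 0.00868), and in it 19.8% of all genes passed.

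**Figure D4:**
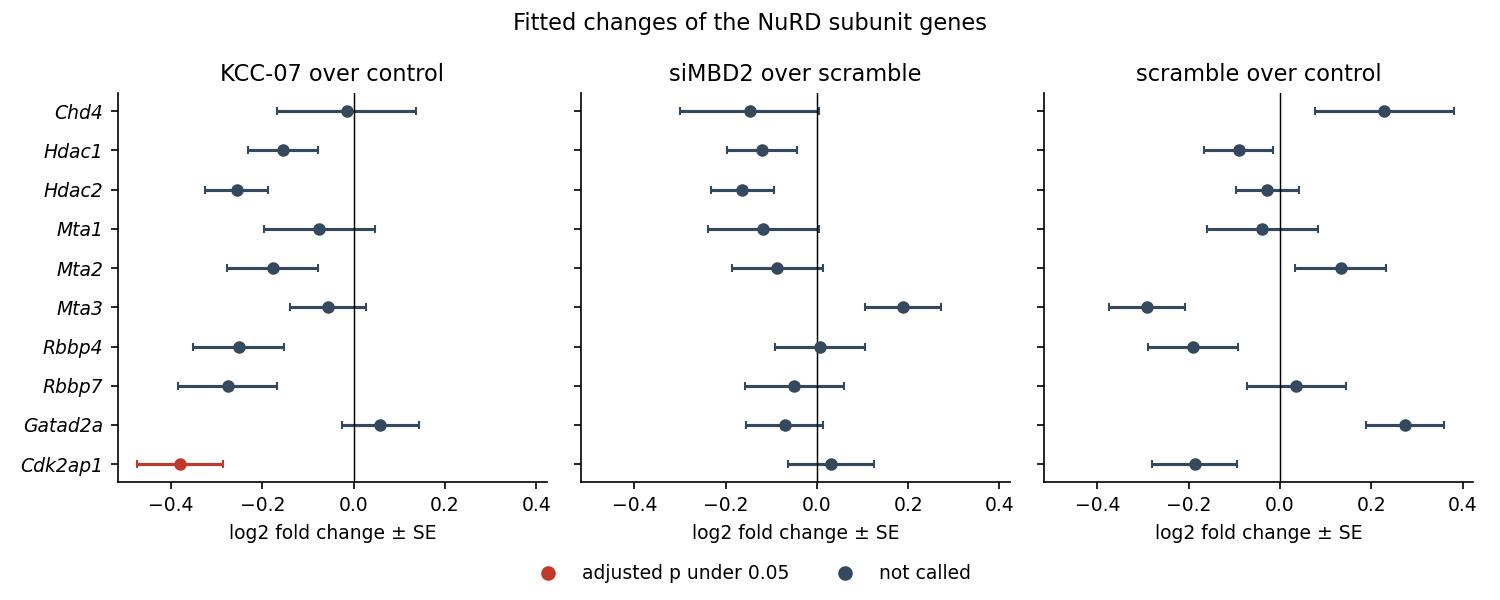
Fitted log2 fold change with its SE (horizontal axes) of each NuRD subunit gene in KCC-07 over control, siMBD2 over scramble and scramble over control. Cdk2ap1 with KCC-07, at -0.38, is the point drawn as past the threshold of an adjusted p under 0.05.

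The effect of KCC-07 was tested against the effect of siMBD2 in 1 contrast. By edgeR 0 of the 10 members passed, where 0.656% of all genes did, and by DESeq2 also 0, where 4.13% did. By edgeR 1 member had an unadjusted p under 0.05, against 14.6% of all genes. Cdk2ap1 had the largest difference in size, -0.41 (SE 0.132, edgeR adjusted p = 0.178, 0.0751 with the replicate block), with log2 fold changes of -0.38 for KCC-07 and 0.03 for siMBD2. Rbbp4 differed by -0.26 (adjusted p = 0.424) and Mta3 by -0.25 (adjusted p = 0.365), with errors of 0.140 and 0.117.

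Scramble against control shares its control libraries with the KCC-07 comparison. Transfection and any other difference between the arms cannot be told apart in it. By edgeR 0 of 10 passed, where 8.79% of all genes did, and 2 had an unadjusted p under 0.05, where 27.2% of all genes did. DESeq2 called 2, where 15.4% of all genes passed. Mta3 had 48.5, 49.9 and 54.4 CPM with scramble, against 62.5, 64.7 and 59.9 CPM in control. The groups did not overlap (log2 fold change -0.29 with an SE of 0.0830, edgeR adjusted p = 0.0505, 0.0403 with a block shared by the groups, where 13.8% of all genes passed). Gatad2a had 226, 220.8 and 207 CPM with scramble, against 168, 170 and 203 CPM in control, each scramble library being higher (log2 fold change 0.27 with an SE of 0.0848, edgeR adjusted p = 0.0671). DESeq2 gave adjusted p = 0.0109 for Mta3 and 0.0235 for Gatad2a. Hdac1 and Cdk2ap1 also did not overlap, each scramble library being lower. Cdk2ap1 had 157, 151 and 168 CPM with scramble, against 187, 173 and 181 CPM in control (log2 fold change -0.19 with an SE of 0.0935, edgeR adjusted p = 0.221), and Hdac1 had a log2 fold change of -0.09 (adjusted p = 0.469). Thus 4 members did not overlap, where 33.2% of all tested genes did not. Epithelial markers summed to 1863 to 1957 CPM with scramble and 1550 to 1748 CPM in control, and Cdh1 was the 1 of 8 that passed. Fibroblast markers summed to 143 to 147 CPM with scramble and 186 to 218 CPM in control, Pdgfrb being lower (-2.34, edgeR adjusted p = 0.00966), and the part of these markers in the members' values was not tested. Without the libraries of replicate 3, 6 members passed, where 41.1% of all genes did, with Chd4, Mta2 and Gatad2a higher and Mta3, Rbbp4 and Cdk2ap1 lower. Without control replicate 3 alone, 4 passed (Chd4, Mta3, Rbbp4 and Gatad2a), where 20.4% of all genes did. Mta3 in each scramble library was thus below each control and each siMBD2 library.

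Ratios of paralogues within a library do not depend on library scaling, and 9 were compared in 3 comparisons, 27 tests in all. With 3 libraries against 3 the exact two-sided permutation test cannot go below p = 0.1, so none can pass, and the adjusted value at that floor was 0.27. In 10 of the 27 the groups did not overlap, and no such share was computed for other gene pairs. Of single tested genes, the groups did not overlap for 22.9% with KCC-07, 22% with siMBD2 and 33.2% in scramble against control. The MTA ratios share genes, so they are not independent. With KCC-07 the lack of overlap held for Cdk2ap1 over Cdk2ap2, with a difference in log2 ratio of -0.32. The control log2 ratios were 2.35, 2.34 and 2.89. Over omissions the difference ran from -0.42 to -0.14, the latter without control replicate 3. Counts of Gm12184 are left out of this ratio. The share of Cdk2ap1 in the CPM per kb of Cdk2ap1 and Cdk2ap2 was 78.4% ± 0.771 with KCC-07 and 81.8% ± 3.13 in control (SD, n = 3 each). With siMBD2 the lack of overlap held for Mta3 over Mta2 (0.27), Mta1 over Mta3 (-0.31) and Mbd2 over Mbd3 (-1.14), Mbd2 being the knocked-down gene. The other 6 were in scramble against control, among them Mta3 over Mta2 (-0.43), Rbbp7 over Rbbp4 (0.22), Gatad2a over Gatad2b (0.24) and Chd3 over Chd4 (-0.46). The Mta3 share of the MTA genes was 12.2% ± 0.954 with siMBD2, 10.3% ± 0.921 with scramble and 12.8% ± 1.17 in control (SD, n = 3 each). In KCC-07 replicate 3 the Mta1 share was 44.7%, against 34.7% and 32.4% in the other KCC-07 libraries.

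**Figure D5:**
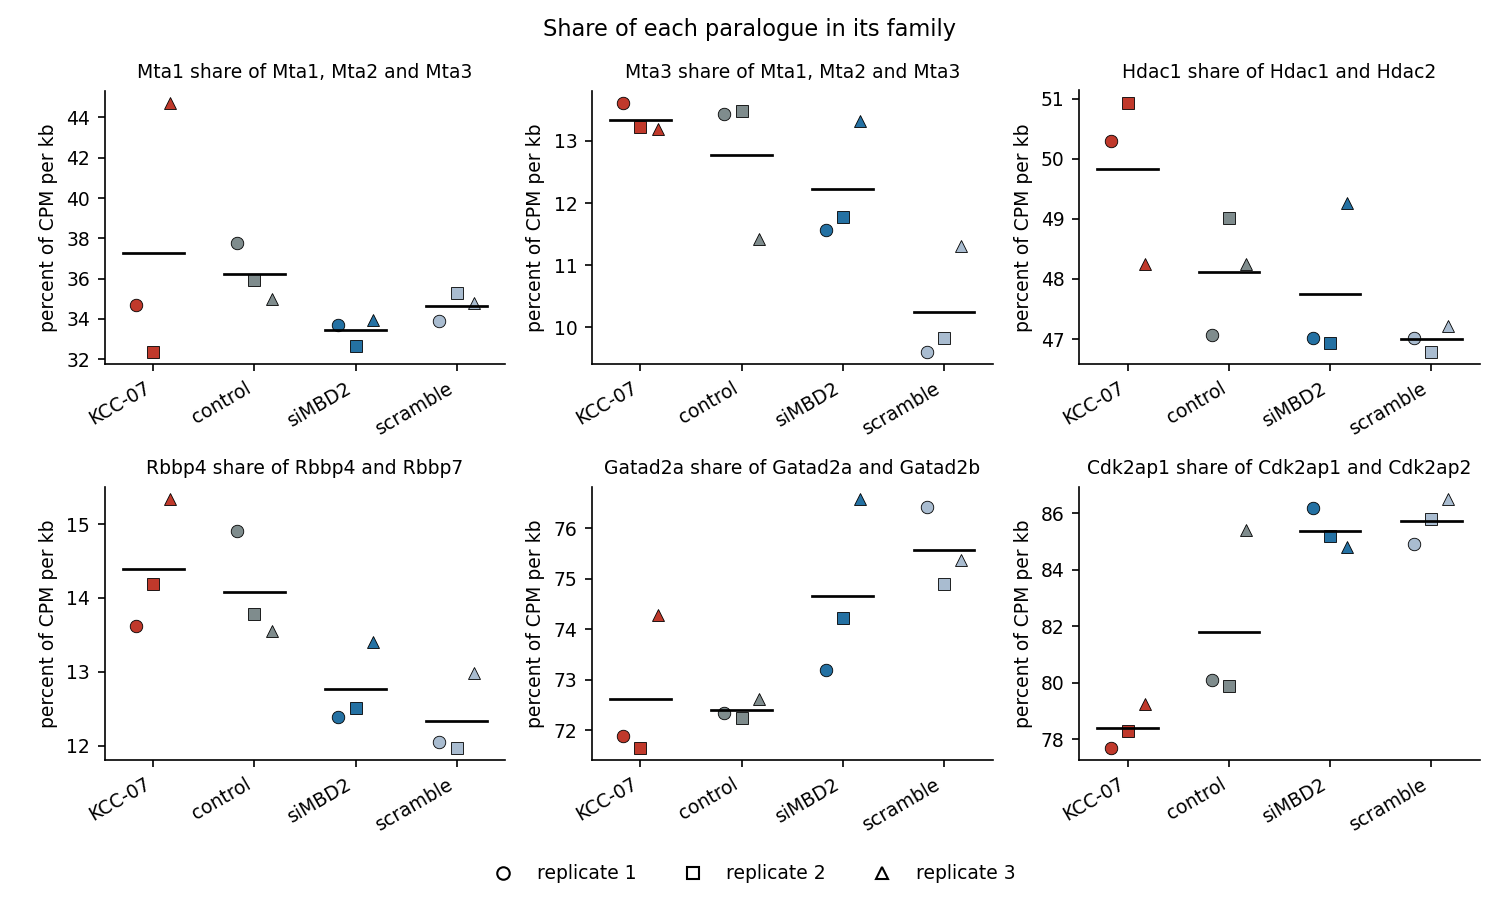
Share of a paralogue in the CPM per kb of its family (vertical axes in percent, not starting at 0) for 6 NuRD subunit genes in the 4 groups, with symbols for the replicates and bars for the means. The Mta3 share in scramble, 9.61% to 11.3%, lies below its share in siMBD2, and the Cdk2ap1 share with KCC-07 lies below its share in control.

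The other genes of NuRD and of the complexes that share its subunits were set beside the members. Of 10 other NuRD genes (Gatad2b, Chd3, Chd5, Mbd2, Mbd3, Cdk2ap2, Zfp219, Zmynd8, Pwwp2a and Pwwp2b) 0 passed with KCC-07 by edgeR, 0 of them with an unadjusted p under 0.05, and their median log2 fold change was 0.02. Pwwp2b passed in the fit with the replicate block (0.70, adjusted p = 0.00587). With siMBD2 1 of the 10 passed, the target Mbd2. In scramble against control Cdk2ap2, a paralogue of Cdk2ap1, fell (20.8 ± 1.16 CPM with scramble, 31.8 ± 6.53 CPM in control; log2 fold change -0.61, edgeR adjusted p = 0.0361). Zmynd8, which encodes a bromodomain protein that binds NuRD, fell too (27.1 ± 2.91 CPM with scramble, 47.4 ± 3.73 CPM in control; -0.81, adjusted p = 0.0234).

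With KCC-07, 1 of 12 SIN3 genes passed, Sap18, which fell (23.5 ± 2.09 CPM with KCC-07, 31.7 ± 1.05 CPM in control; SD, n = 3 each; log2 fold change -0.43, edgeR adjusted p = 0.0453). Sap18 has near-identical copies, Sap18b the most counted at 79.4 CPM, and its exons overlap Ska3, so it is uncertain. Among 5 tested NuRD-recruiting factors Zfpm1, which encodes FOG1, rose (17.3, 18.2 and 36.1 CPM with KCC-07, against 10.7, 14.0 and 13.0 CPM in control; 0.92, edgeR adjusted p = 0.0458). KCC-07 replicate 3 was the highest. Of 3 tested genes of the MTA3 axis known from breast cells, Cdh1, the E-cadherin gene, rose (357 ± 29.9 CPM with KCC-07, 272 ± 27.6 CPM in control; 0.39, edgeR adjusted p = 0.0435), and it is also among the 8 epithelial markers. No gene passed among the CoREST (10 tested), MiDAC (3), PRC2 (9), CAF-1, HAT1 and NURF (5), MuvB (5) and other histone deacetylase (8) lists, of which 2 CoREST genes and 4 other deacetylases had an unadjusted p under 0.05, a level reached by 25.1% of all genes. With siMBD2 0 genes of these lists passed.

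In scramble against control, genes of these lists that fell were Rcor2 (-0.55, edgeR adjusted p = 0.0385) and Phf21a (-0.90, 0.0111) of CoREST, Bcl6 (-1.13, 0.00628), a repressor that recruits MTA3, and Esr1 (-0.55, 0.0371), the oestrogen receptor gene. Those that rose were Gse1 (1.20, 0.0361) of CoREST, Lin54 (0.52, 0.0415) of MuvB, and Cdh1 (0.53, 0.0102). Gse1 and Bcl6 overlap genes on the opposite strand and are uncertain.

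By the centred log2 profile over the 12 libraries, Hdac1 and Hdac2 were each other's nearest members, with a root mean square difference of 0.0787. This measure is small between genes that vary little, and they had the lowest SDs of log2 CPM among the members (0.10 and 0.12). Hdac1 was also the nearest member to Rbbp4 and to Mta3. The nearest of all tested genes were Zdhhc16 for Hdac1 (0.0461), Ywhab for Hdac2 (0.0406) and Mrpl51 for Cdk2ap1 (0.0627), and 62 genes lay nearer to Hdac1 than Hdac2 did.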

How the data were processed

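Polyadenylated RNA of 12 libraries was sequenced (NovaSeq X, per the labels), and the authors deposited 1 table of raw counts per gene with no normalization. DRAGEN, DESeq2 1.44.0 and the build mm10 (GRCm38.p6) appear in the submitters' processing notes with no step named for each, and neither a strand setting nor the treatment of reads that map to several places is given in the sources used here. Columns were assigned through the library names, and groups came from the treatment label.

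Genes were kept by filterByExpr (minimum count 10, minimum total 15), TMM-scaled and tested with edgeR 4.0.16 in R 4.3.3 (glmQLFit, glmQLFTest) on all 12 libraries with 1 mean per group (8 residual degrees of freedom). A gene passed at a Benjamini-Hochberg adjusted p under 0.05 over all 14935 tested genes. An adjusted p given for another fit was adjusted over all genes that fit tested. The SE is the absolute log2 fold change over the square root of F. Levels are TMM-scaled CPM, and CPM per kb used merged exons of GENCODE M21 on GRCm38. Paralogue ratios used an exact permutation test. Near-identical copies were transcripts with 95% identity over 50% of their length by blastn 2.17.0. The fit was run on simulated counts with 1 dispersion for all genes and no replicate effect. That run does not test it under the replicate differences of these data. Intervals and SEs rest on 3 libraries a group.

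The batch tag of the labels gives each library a replicate number that the groups share, and the pairing rests on this tag. The deviations from the group means had a correlation, for libraries of 1 number, of r = 0.268, 0.284 and 0.484 between KCC-07 and control, 0.0925, 0.153 and 0.421 between siMBD2 and scramble, and 0.0732, 0.0208 and 0.126 between scramble and control. For libraries of different numbers r ran from -0.416 to 0.295, -0.301 to 0.214 and -0.144 to 0.0995 in the same order, the values above 0 all being between replicates 1 and 2. The correlations thus set replicate 3 apart and do not tell replicates 1 and 2 apart. The fit with the replicate number as a block within each arm (4 residual degrees of freedom; 6 where all groups shared it) stands beside a result where it changes a call. In the library names, replicate 3 of KCC-07 and of control carries the number 4, and that of siMBD2 and of scramble the number 3. Whether the arms shared batches was not tested, though the block shared by all groups takes it as given. No replicates of a group held identical counts, and the smallest chi-square per degree of freedom between them was 3.32. Alternatives were DESeq2 1.42.0, other scalings and filters, fits of 6 libraries, and leaving out libraries.

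All 10 members are named, as are all measured other NuRD genes and each gene of the other lists, cell type markers included, that passed the threshold in a comparison. The members and lists were chosen with earlier results of these data known. An immune marker of the fixed lists is not reported here.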

Additional observations from a re-analysis of the deposited data

How the results depend on the processing

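Of 692 fold changes recomputed under an alternative, 634 kept direction and side of the threshold, 8 lost and 30 gained a call, and 20 changed sign. For KCC-07 over control the count of members called, 1 as reported, was 0 with no filter on low counts, at a threshold of 0.01, and in the 6 libraries alone without and with the replicate block (0 and 0). It was 2 with a filter of 1 CPM in 3 libraries and 2 with the DESeq2 Wald test, 4 with the replicate block, 5 without the libraries of replicate 3, and 0 to 3 when a library was left out, the 3 being without control replicate 3. Over all genes the share called, 5.65% as reported, was 21.8% with the replicate block, 25.6% without the libraries of replicate 3 and 13.9% without control replicate 3. Where 0 members were called, it was 3.29% with no filter and 0.971% at the threshold of 0.01. In the 6 libraries alone it was 0.00688% without and 2.84% with the block. It was 6.93% with the 1 CPM filter, 12.5% with DESeq2, and 2.51% to 13.9% when a library was left out. For siMBD2 over scramble the count of members was 0 as reported, and 0 in each omission. It was 4 in the 6 libraries alone with the replicate block, where 19.8% of all genes passed. For scramble over control the count, 0 as reported, was 1 with library totals (9.61% of all genes) and 1 with the 1 CPM filter (10.3%). It was 1 with the replicate block (13.8%), 2 with DESeq2 (15.4%) and 6 without the libraries of replicate 3 (41.1%). When a library was left out, it was 0 to 4 (1.91% to 20.4%). For the difference of the effects the count was 0 throughout, also without the libraries of replicate 3, where 10.6% of all genes passed. Signs turned as follows. Chd4 with KCC-07 was 0.014 with the replicate block, 0.014 in the 6 libraries with the block, 0.25 without replicate 3, and -0.20 to 0.18 over omissions. Mta1 with KCC-07 ran from -0.26 to 0.033 over omissions, and with siMBD2 Rbbp4 ran from -0.00030 to 0.020 and Cdk2ap1 from -0.0073 to 0.077. For the difference of the effects, without replicate 3 and over omissions, Hdac1 was 0.011 and -0.094 to 0.019, Mta1 -0.097 and -0.15 to 0.15, and Mta2 0.089 and -0.16 to 0.0013, while Chd4 ran from -0.052 to 0.33. For scramble over control, Mta1 was 0.015 without replicate 3, Rbbp7 -0.033 with library totals and -0.024 to 0.078 over omissions, and Hdac2 -0.045 to 0.0060. All 189 ratio differences moved by less than 1 SD, an outcome fixed in advance. Leaving out 1 of 3 libraries cannot move them that far, and the replicate block leaves them unchanged. The 189 thus do not show stability. Some ratio differences changed sign over omissions. With KCC-07 these were Mta1 over Mta2 (-0.17 to 0.25) and Mta1 over Mta3 (-0.19 to 0.048). Rbbp7 over Rbbp4 (-0.084 to 0.020) and Gatad2a over Gatad2b (-0.045 to 0.051) did so too. With siMBD2 they were Hdac1 over Hdac2 (-0.0015 to 0.066), Mta1 over Mta2 (-0.065 to 0.0024) and Cdk2ap1 over Cdk2ap2 (-0.089 to 0.0050). Of 160 levels 5 moved by more than 1 SD, all with library totals in place of TMM. Only that alternative could do so, since leaving out 1 of 3 libraries shifts a mean by less than 1 SD. The 5 therefore stand against the library-total values alone, not against all 160. The causes were not tested.

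The 3 libraries a group and the split of replicate 3 from the others limit these counts. Summing Cdk2ap1, Hdac1 and Rbbp7 with their copies was chosen after seeing the data and left the count with KCC-07 at 1. Cdk2ap1 with its copies ran from -0.45 to -0.32 over omissions.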
